A study of Mus musculus with 3 samples.

Results

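The genes described here are 39 mouse genes that cells switch on quickly after a stimulus, or that serve protein folding under stress, and that are often seen in tissue that was enzymatically or mechanically dissociated. They were taken by symbol from the raw count table and comprise AP-1, EGR, NR4A, DUSP and KLF genes, other early response genes and heat shock genes. All 39 were found among the 46983 gene rows of the table, each on 1 row, and 37 passed the filter on low counts. Dusp2 and Egr3 did not pass it and are given as counts.

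The data are bulk RNA-seq counts of leptomeningeal cells, the cells of the inner membranes around the brain, from mice treated with vehicle. The labels call the material a pia enriched fraction; per the labels' protocols the membranes were microdissected, cells were freed from them and sorted (FACS), and their RNA was amplified with a SMART-Seq kit, which does not mark strand. All 3 libraries analysed here belong to this 1 group, so that every comparison is between libraries or between genes. What the vehicle stood beside, the strain, sex and age of the mice, the sort gate, the means of dissociation and the time from dissection to lysis are not given in the sources used here. Nor is it given whether each library came from a separate mouse or a pool, so p-values measure only the spread between these 3 samples, which may be technical. Undissociated tissue was not analysed here, and no level below can be divided into what the cells held in the animal and what arose during preparation.

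The libraries held between 21002860 and 28704952 gene counts. Markers of fibroblasts, the collagen-producing cells of the membranes, were abundant: the 6 genes Col1a1, Col1a2, Col3a1, Dcn, Lum and Pdgfra summed to 26027 ± 2882 counts per 1000000 (CPM; SD, n = 3). All 8 leptomeningeal markers lay above 1 CPM in every library and summed to 1702 ± 41.9 CPM. The small SD of this sum hides differences between single markers. Slc47a1 was at 846, 1243 and 1057 CPM in libraries 1, 2 and 3, and Ptgds went the other way, at 649, 240 and 519 CPM. Library 1 stood apart from libraries 2 and 3. Its log2 values correlated across genes at 0.933 and 0.941 with theirs, against 0.975 between libraries 2 and 3. Its 8 macrophage and microglia markers summed to 12.4 CPM, against 261 and 751 CPM in libraries 2 and 3, and its 6 choroid plexus markers to 71.6 CPM against 1766 and 2723 CPM.

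Immediate early genes are transcribed without new protein synthesis when kinase cascades reach factors that already sit at their promoters, chiefly the serum response factor with its ETS-family partners and the cyclic AMP response element binding protein. Their mRNAs are short-lived. Many encode transcription factors such as FOS, JUN and EGR1 that carry the response on, and others encode phosphatases and RNA decay factors that end it. Heat shock genes answer instead to heat shock factor 1, which is released when unfolded proteins occupy the chaperones that hold it. Both programmes are known to start in many cell types during warm enzymatic dissociation.

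The promoters of several members show letters of the elements to which these factors bind. RefSeq windows on GRCm38.p6 were found for 31 of the 39 genes, and the 250 bases before the first listed start of each were searched. The first 3 windows below belong to an AP-1 gene and to 2 feedback genes. Capitals mark the TATA box (TATAAA, sense strand), the CArG box to which the serum response factor binds, and the cyclic AMP response element (TGACGTCA), the last 2 on both strands.
Fos, chr12:85473640-85473889, plus strand: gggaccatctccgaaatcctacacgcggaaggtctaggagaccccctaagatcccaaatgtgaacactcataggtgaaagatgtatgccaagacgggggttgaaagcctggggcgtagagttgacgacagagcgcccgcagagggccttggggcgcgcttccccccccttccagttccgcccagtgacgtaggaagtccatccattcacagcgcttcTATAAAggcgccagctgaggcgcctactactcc
Zfp36, chr7:28379229-28379478, minus strand: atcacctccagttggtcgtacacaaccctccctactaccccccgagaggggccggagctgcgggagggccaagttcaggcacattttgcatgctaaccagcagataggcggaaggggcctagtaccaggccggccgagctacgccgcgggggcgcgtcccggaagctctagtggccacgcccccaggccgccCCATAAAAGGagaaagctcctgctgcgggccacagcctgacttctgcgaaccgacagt
Dusp1, chr17:26508473-26508722, minus strand: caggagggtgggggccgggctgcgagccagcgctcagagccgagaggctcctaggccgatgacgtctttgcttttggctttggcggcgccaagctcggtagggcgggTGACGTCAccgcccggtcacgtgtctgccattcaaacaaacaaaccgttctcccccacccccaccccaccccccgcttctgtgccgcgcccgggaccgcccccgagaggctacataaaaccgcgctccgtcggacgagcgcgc
The next 3 belong to chaperone genes, and capitals mark pairs of heat shock units (GAANNTTC or TTCNNGAA, both strands).
Hspa1a, chr17:34972157-34972406, minus strand: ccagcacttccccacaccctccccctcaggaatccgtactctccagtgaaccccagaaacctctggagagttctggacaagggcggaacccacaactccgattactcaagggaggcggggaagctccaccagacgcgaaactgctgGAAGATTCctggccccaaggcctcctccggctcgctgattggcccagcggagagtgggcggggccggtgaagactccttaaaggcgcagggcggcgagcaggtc
Hspa1b, chr17:34959239-34959488, minus strand: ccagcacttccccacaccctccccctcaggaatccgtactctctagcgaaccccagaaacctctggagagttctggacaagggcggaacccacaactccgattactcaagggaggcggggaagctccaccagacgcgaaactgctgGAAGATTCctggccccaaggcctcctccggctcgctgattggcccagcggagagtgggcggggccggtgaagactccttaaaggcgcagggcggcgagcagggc
Hsph1, chr5:149636337-149636586, minus strand: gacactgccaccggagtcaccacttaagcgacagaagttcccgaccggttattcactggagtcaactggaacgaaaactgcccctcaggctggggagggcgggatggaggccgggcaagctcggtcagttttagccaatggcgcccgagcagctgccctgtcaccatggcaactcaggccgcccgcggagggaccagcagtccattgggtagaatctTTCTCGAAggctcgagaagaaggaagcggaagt
The windows of Hspa1a and Hspa1b, neighbouring genes for inducible HSP70, were identical at 247 of 250 positions (98.8%).

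Fos held its TATA box 33 to 28 bases before the start, Zfp36 a CArG box 58 to 49 bases before it, and Dusp1 a cyclic AMP response element 143 to 136 bases before it. Over the 31 windows, a CArG box stood in 2 (Zfp36 and Dusp5; 6.45%, against 1.4% of 27025 gene windows and 1.16% of the 10351 windows of genes past the filter). The cyclic AMP response element also stood in 2 (Btg2 and Dusp1; 6.45%, against 1.62% and 2.81%). Pairs of heat shock units stood in 7 windows (22.6%, against 12.9% and 9.91%), those of Hspa1a, Hspa1b, Hspb1, Hsph1, Dnaja1, Jun and Fosl2. The GC box (GGGCGG, both strands) was the most widespread, in 27 of 31 windows (87.1%, against 32.9% and 59.4%). The EGR site (GCGTGGGCG or GCGGGGGCG, both strands), whose letters overlap those of a GC box, stood in 9 (29%, against 3.05% and 5.86%). An AP-1 site (TGACTCA or TGAGTCA, both strands) stood in 0 of 31, against 4.43% and 2.96%. These are matches of letters in short windows, not measured binding. Bases further from the start, genes without a window and sites that differ from these letters were not covered. A window without a match, such as that of Fos for the CArG box, therefore does not show that the gene lacks the element.

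Together the 39 genes took 1.21% ± 0.276 of gene counts (SD, n = 3), with 1.53% in library 1, 1.03% in library 2 and 1.08% in library 3. To compare genes with each other, CPM were divided by the kilobases of annotated exon (RPKM). The median of the 39 genes was 21.9 ± 2.93 RPKM, against a median of 3.71 RPKM for all genes past the filter. Above that median lay 33 of the 39, and 15 lay above percentile 90 of those genes. The first 10 in this order were the same genes in each library, although 33 of the 38 neighbours in the full order had libraries that overlapped. Breaks without overlap came below Hsp90aa1, Dnajb1, Btg1, Ier5 and Dusp5.

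**Figure D1:**
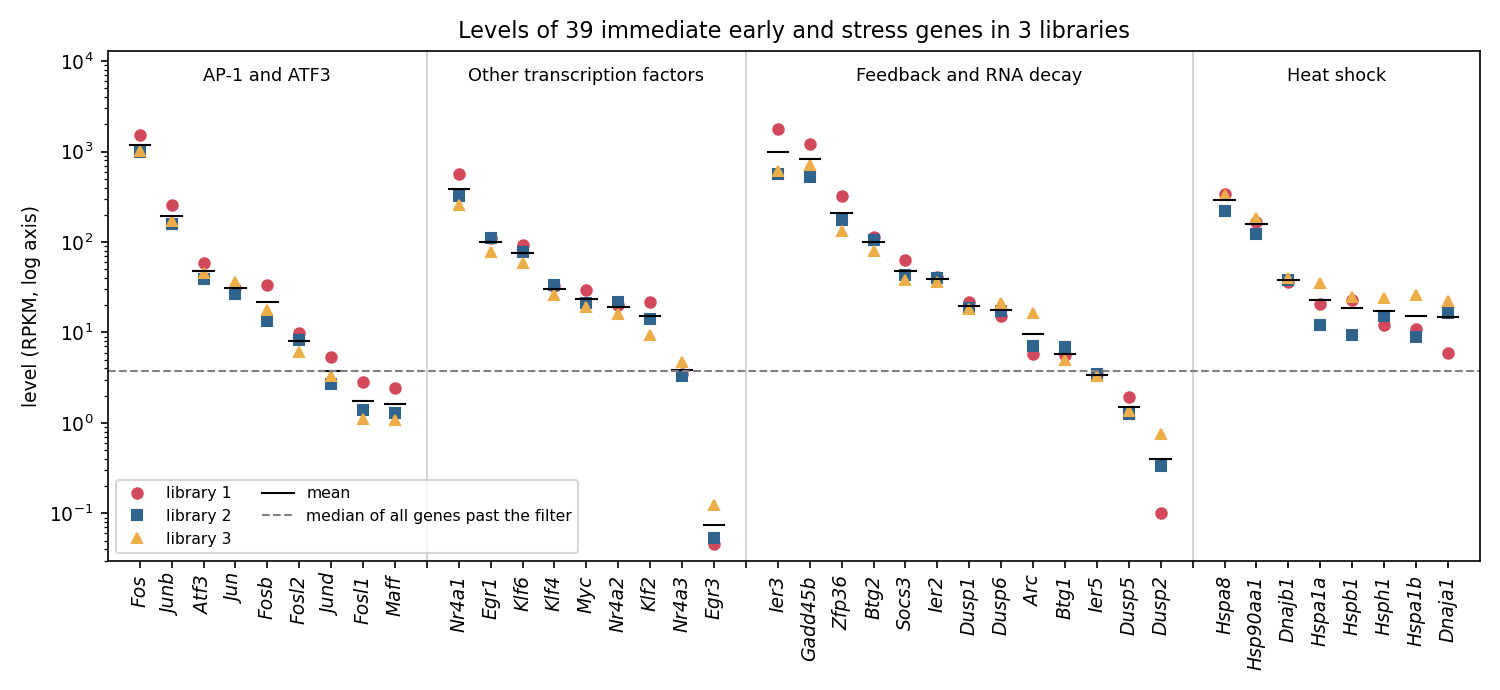
Level of each of the 39 genes per kilobase of exon (RPKM, log axis) in libraries 1 (circles), 2 (squares) and 3 (triangles), by role group, with the mean as a bar. Fos, Ier3 and Gadd45b lie highest, at means of 1174, 990 and 823 RPKM, and Egr3 lies lowest, far below the dashed line, the median of all genes past the filter (3.71 RPKM).

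AP-1 is a dimer of a JUN with a FOS or ATF protein, and its subunits were present at very unequal levels. Fos, the founding FOS gene (ENSMUSG00000021250.13, chromosome 12, 85473890 to 85477273; coordinates are those of GENCODE M21 on GRCm38), reached 3607, 2318 and 2358 CPM (libraries 1 to 3, the order used throughout). It was the most abundant of the 39 per kilobase, at 1174 ± 312 RPKM, with only 21 genes of the table past the filter above it. Library 1 was high and libraries 2 and 3 nearly equal. Junb, a JUN that responds early and dimerises with FOS, followed at 596, 366 and 392 CPM (196 ± 54.7 RPKM). Atf3, a stress-induced member of the ATF family, was at 125, 83.1 and 98.5 CPM (47.5 ± 9.89 RPKM). Both had the same order of libraries as Fos, highest in 1 and lowest in 2.

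Jun was lower than Junb in each library, at 97.7, 85.6 and 114 CPM (31.1 ± 4.43 RPKM), and was the only subunit highest in library 3. Fosb was at 211, 83.9 and 112 CPM, which placed library 1 well above the others. Fosl2 was at 77.7 ± 18.5 CPM (SD, n = 3) and 8.03 ± 1.91 RPKM. The remaining 3 were near or below the median of all genes per kilobase. Jund, the JUN usually described as constitutive, was at 8.92, 4.52 and 5.53 CPM. Fosl1 was at 5.73, 2.80 and 2.24 CPM, and Maff, a small MAF protein that lacks an activation domain, at 6.28, 3.37 and 2.78 CPM. All 3 were highest in library 1.

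The levels of Jund and Fosl1 carry a limit from the annotation. An antisense gene, Gm11175, covers 52.6% of the exons of Jund, and Ccdc85b on the opposite strand covers 57.2% of those of Fosl1. Without strand, reads in such overlaps cannot be assigned to either gene. Of all 50-base positions of the longest transcript, 48.3% were shared with another gene for Jund and 58.9% for Fosl1, against 5.83% for Jun and 0% for Fos, Fosb and Junb. Per kilobase of unshared positions, Jund came to 7.55 ± 2.75 and Fosl1 to 4.81 ± 2.51, which is 1.99 and 2.73 times the RPKM. Here and below, such a level assumes that no shared read was counted. Its factor over the RPKM also includes any difference in length between the longest transcript and all annotated exons.

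Within each family most of the RNA came from a single gene. Fos made up 97.1%, 97.7% and 97.6% of the summed RPKM of the 4 FOS genes in libraries 1, 2 and 3, with Fosb at 1.74% ± 0.403 and Fosl1 and Fosl2 below that. Among the JUN genes, Junb made up 87.8%, 84.3% and 81.4%, Jun 10.4%, 14.2% and 17.0%, and Jund 1.61% ± 0.19. These shares do not depend on how the libraries were scaled. Fos exceeded Fosb 57.1-fold per kilobase (log2 ratio 5.84 ± 0.35, SD, n = 3), and Junb exceeded Jun 6.2-fold (2.63 ± 0.42). Jun exceeded Jund 8.49-fold (3.09 ± 0.49), or by 2.20 ± 0.49 on the log2 scale when only unshared positions were used. Each ratio had the same sign in 3 of 3 libraries. With 3 libraries an exact permutation of signs, two-sided, cannot give less than p = 0.25. Of the 10 ratios computed here 9 reached that value (0.278 after Benjamini-Hochberg adjustment over the 10, exact permutation).

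**Figure D2:**
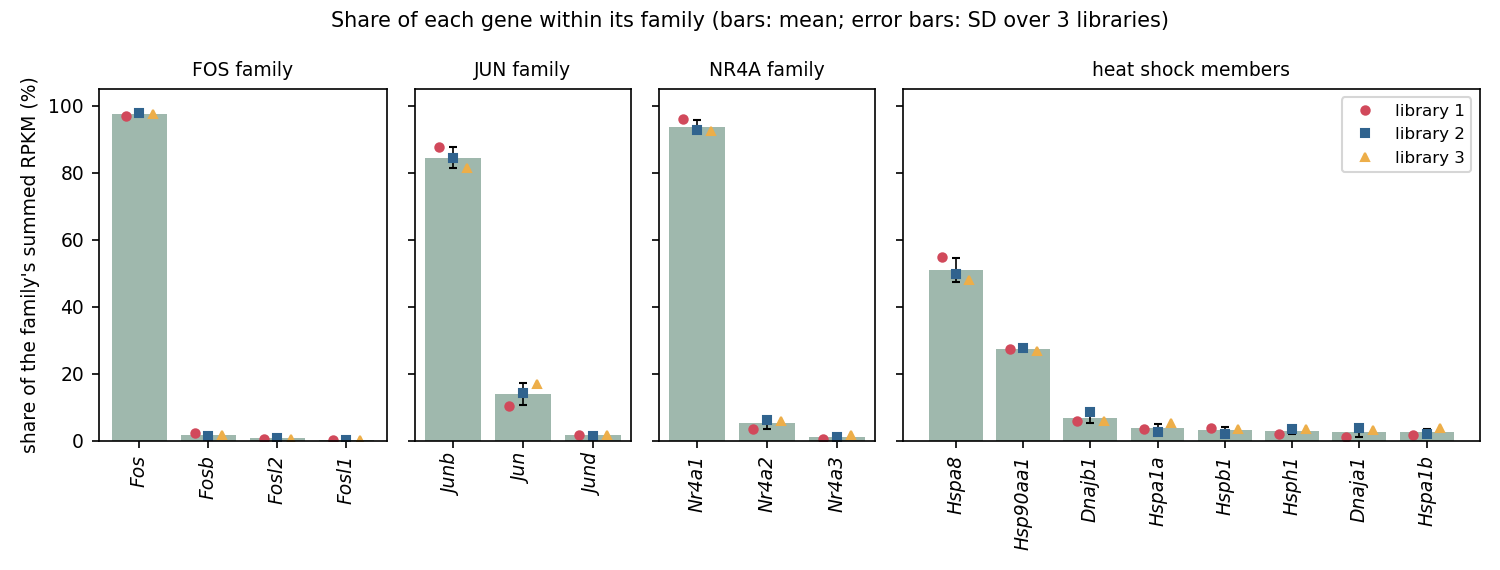
Share of each gene in the summed RPKM of its family, as the mean (bars) with the SD over 3 libraries and the value of each library (points). Fos, Junb and Nr4a1 each take over 80% of their family in every library, while Hspa8 and Hsp90aa1 lead a more even heat shock group.

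Among the other early transcription factors the NR4A family was also uneven. Nr4a1, an orphan nuclear receptor induced by many stimuli (ENSMUSG00000023034.6, chromosome 15, 101254269 to 101274795), was at 1996, 1140 and 902 CPM and led this group at 384 ± 164 RPKM. Egr1, a zinc finger factor and a known target of the serum response factor, was at 495, 494 and 346 CPM (99.2 ± 19.2 RPKM). Klf6 was at 402, 339 and 258 CPM (75.9 ± 16.5 RPKM). Library 3 was lowest for all 3 of these genes. The relatives of Nr4a1 were far lower. Nr4a2 was at 19.3 ± 2.95 RPKM and Nr4a3 at 3.85 ± 0.735 RPKM, so that Nr4a1 made up 93.8% ± 1.93 of its family and exceeded Nr4a2 18.9-fold (log2 ratio 4.24 ± 0.50, SD, n = 3). Nr4a2 in turn exceeded Nr4a3 5.03-fold (2.33 ± 0.49).

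Egr2, a relative of Egr1 that is not among the 39, was at 162, 120 and 209 CPM (48.2 ± 13.1 RPKM). Egr3 had 4, 7 and 14 counts in libraries 1, 2 and 3 and was the lowest of the 39 genes. The log2 ratio of Egr1 to Egr3 was 10.51 ± 1.06 per kilobase, a value that rests on those few counts. The remaining 3 factors lay between 15.1 and 30.6 RPKM. Klf4 was at 98.7, 103 and 78.1 CPM, Klf2, a factor also known from endothelium under flow, at 40.3, 26.1 and 17.1 CPM, and Myc, a growth regulator, at 79.9, 58.0 and 52.0 CPM. Klf6 exceeded Klf4 by 2.46-fold (log2 ratio 1.30 ± 0.18). Endothelial markers, which bear on Klf2, summed to 90.5, 67.6 and 77.0 CPM over 6 genes, all above 1 CPM in each library; their part in the level of Klf2 was not tested.

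Genes that limit the response, or that act in growth arrest and survival, held the next 2 places after Fos. Ier3, an early response gene linked to cell survival (ENSMUSG00000003541.6, chromosome 17, 35821684 to 35822923), was at 2019, 645 and 694 CPM (990 ± 690 RPKM). Gadd45b, a stress sensor that modulates MAP kinase signalling (ENSMUSG00000015312.8, chromosome 10, 80930073 to 80932204), was at 1948, 840 and 1134 CPM (823 ± 361 RPKM). Library 1 exceeded both other libraries for each, and in library 1 Ier3 exceeded Fos per kilobase. Without library 1 the mean of Ier3 was 669 CPM in place of 1119 CPM. Zfp36, which encodes tristetraprolin, a protein that brings about decay of mRNAs with AU-rich elements, was at 1121, 613 and 456 CPM (210 ± 100 RPKM). Btg2, an antiproliferative gene, was at 309, 290 and 216 CPM and its relative Btg1 at 29.9, 36.4 and 25.9 CPM, both lowest in library 3. Socs3, the feedback inhibitor of JAK-STAT signalling, was at 183, 123 and 110 CPM (48.0 ± 13.5 RPKM).

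The dual-specificity phosphatases, which remove phosphate from MAP kinases, were lower. Dusp1 was at 72.4, 61.7 and 60.6 CPM and Dusp6, which acts on ERK, at 48.1, 53.8 and 65.6 CPM. Their ratio was 1.11-fold (log2 ratio 0.14 ± 0.35, SD, n = 3), above 1 in 2 of 3 libraries and -0.04 on the log2 scale without library 1, so an order of the 2 was not resolved (exact sign-flip permutation p = 0.75). Dusp5, with 95, 91 and 87 counts, was at 3.75 ± 0.934 CPM, and an antisense gene covers 22.1% of its exons. Dusp2 had 4, 20 and 39 counts.

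Ier2 and Ier5 varied little between libraries. Ier2 was at 62.8, 61.1 and 54.6 CPM and Ier5 at 11.4, 11.3 and 10.9 CPM, with coefficients of variation of 7.21% and 2.38%. Their log2 ranges of 0.20 and 0.06 became 0.66 and 0.24 once the trends with base composition and exon length were taken out, whereas that of Dusp1 went from 0.25 to 0.10. Arc, best known as an activity-regulated gene of neurons, was at 17.7, 21.4 and 50.1 CPM, with library 3 high; its mean of 29.7 CPM was 19.5 CPM without library 3. The 6 neuron markers summed to 60.9, 77.2 and 71.1 CPM in libraries 1, 2 and 3, and Gad1 was at 0 in 1 library; their part in the level of Arc was not tested.

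The heat shock group was led by genes that are abundant in unstressed cells. Hspa8, the constitutive cytosolic HSP70 (ENSMUSG00000015656.16, chromosome 9, 40800984 to 40810087), was at 1446, 948 and 1405 CPM (294 ± 64.3 RPKM). Hsp90aa1, the stress-responsive cytosolic HSP90, was at 659, 482 and 718 CPM (158 ± 31.2 RPKM). Library 2 was lowest for both. Dnajb1, an HSP40 co-chaperone, was at 117, 122 and 126 CPM, a coefficient of variation of 3.93%. The log2 range of Dnajb1, 0.11, became 0.34 once the trends with base composition and exon length were taken out. Hsp90aa1 was below its constitutive relative Hsp90ab1, which is not among the 39, at 0.24 times its level per kilobase of exon (log2 ratio -2.06 ± 0.31, SD, n = 3). Of the 50-base positions of Hsp90aa1, 58.5% were shared with other genes, mainly a pseudogene, and per kilobase of unshared positions it came to 462 ± 91.5, or 2.93 times the RPKM. The ratio to Hsp90ab1 was not computed on unshared positions, so its size is uncertain.

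The inducible HSP70 genes were much lower than Hspa8. Hspa1a (ENSMUSG00000091971.3, chromosome 17, 34969190 to 34972156) was at 61.8, 36.0 and 105.3 CPM, and Hspa1b (ENSMUSG00000090877.3, chromosome 17, 34956436 to 34959238) at 30.9, 25.1 and 72.0 CPM. Both were highest in library 3 and lowest in library 2, and without library 3 the mean of Hspa1b was 28.0 CPM in place of 42.7 CPM. Hspa8 exceeded their sum 10.6-fold and 10.5-fold in libraries 1 and 2 and 5.34-fold in library 3 (log2 ratio 3.07 ± 0.56, SD, n = 3). Of the 50-base positions, 66.3% of Hspa1a and 62.3% of Hspa1b were shared with another gene, mainly each other, and 52.7% of Hspa8 were shared with pseudogenes and other genes. If reads with several positions were given to no gene, reads that fit a copy equally well are missing from these levels. This handling could not be checked here, and the division between Hspa1a and Hspa1b is uncertain. Per kilobase of unshared positions Hspa8 came to 860 ± 188, Hspa1a to 68.9 ± 35.6 and Hspa1b to 41.1 ± 24.6.

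The small chaperone Hspb1 was at 23.3, 9.67 and 25.1 CPM, and 51.7% of its positions were shared, mainly with a pseudogene. Hsph1, an HSP110 that recharges HSP70, was at 88.2, 110 and 177 CPM. Dnaja1, an HSP40 whose positions were shared to 28.8%, was at 51.2, 141 and 194 CPM. Library 3 was highest for all 3 of these genes, but the lowest library was 2 for Hspb1 and 1 for Hsph1 and Dnaja1.

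Since 1 group offers no contrast, edgeR's goodness-of-fit test was used. It asks which genes vary between libraries more than is typical of genes at their level. That typical spread was estimated from these same 3 libraries, so a gene that is not called may still differ between them. The test called 63 of 14409 genes variable (0.437%), and 0 of the 37 members tested at an adjusted p-value threshold of 0.05. At an unadjusted p below 0.05 there were 3 members (Ier3, Dnaja1 and Hspa1b) and 1015 genes in all. The smallest adjusted p of a member was 0.368, for Dnaja1, whose values spanned 1.90 on the log2(CPM + 1) scale. Ier3 had an adjusted p of 0.373 and a range of 1.65 in edgeR's test. The genes that were called spanned at least 2.21, more than any member, so smaller differences were below what this test called with 3 libraries. The members' median range was 0.64, against 0.67 for all genes tested, and 18 of 37 exceeded the latter. The count of members called was 0 under all 10 other settings, in which between 2 and 4 members had an unadjusted p below 0.05 and the smallest adjusted p of a member was 0.063, for Hspa1a without library 1.

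Although no member passed the test, the role groups leaned towards different libraries. Of all 37 members, 23 (62.2%) were highest in library 1 under TMM scaling, as were 39.6% of all genes tested. With plain library totals 18 members were, but that scaling lowers library 1 for all genes. Library 1 then exceeded library 2 in 64.9% of members and 43.4% of all genes, against 78.4% and 50.05% under TMM. Of the 9 AP-1 and ATF3 genes, 8 were highest in library 1, the exception being Jun, under TMM, DESeq2 size factors and plain totals alike. Their median deviation from each gene's own mean was 0.43 in library 1, -0.22 in library 2 and -0.17 in library 3 on the log2 scale. Of the 8 other transcription factors past the filter, 7 were lowest in library 3, the exception being Nr4a3; over all genes this share was 27.2%. Of the 12 genes past the filter in the feedback group, which also holds Arc, Ier2 and Ier5, 9 were highest in library 1, or 6 with plain totals. Library 1 also held the most erythroid RNA, with the 5 markers summing to 821, 206 and 341 CPM and all above 1 CPM in each library, and the smallest mitochondrial share of counts, at 0.918% against 3.6% and 3.46%. It held the least macrophage RNA, as given above, with 6 of the 8 markers above 1 CPM in every library. The part of these differences in the members' levels was not tested.

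Heat shock genes had another order. Of 8, 7 were highest in library 3 under TMM, the exception being Hspa8, as were 27.6% of all genes tested. With plain totals all 8 were, but library 1 then exceeded library 3 in only 42.9% of all genes, against 49.1% under TMM. Their median deviation was -0.03, -0.37 and 0.51 in libraries 1, 2 and 3. Without library 1, all 8 were higher in library 3 than in library 2, where 49.5% of all genes were, by a median of 0.62. The same comparison gave 6 of 9 AP-1 and ATF3 genes, 1 of 8 other transcription factors and 5 of 12 feedback genes higher in library 3. Markers of several other cell types had their highest sums in library 3 as well. The 6 mural cell markers, of the muscle cells and pericytes of vessels, summed to 2604, 2292 and 4510 CPM, and the 6 Schwann cell markers, of peripheral myelin, to 3269, 2825 and 4780 CPM, all above 1 CPM in each library. The sums of the macrophage and choroid plexus markers given above were highest there too, at 751 and 2723 CPM. Most of the choroid plexus sum was Ttr (32.7, 1598 and 2537 CPM), and Clic6 and Otx2 were highest in library 2. Sums of 5 astrocyte markers (48.6, 45.7 and 77.1 CPM) and 5 lymphocyte markers (2.69, 53.9 and 62.3 CPM) were also highest in library 3. Of the lymphocyte markers, Cd3e and Ms4a1 were at 0 in a library, and Cd3e was highest in library 1. The part of all these cell types in the heat shock levels was not tested. In bulk RNA, more cells of a type cannot be told apart from more RNA per cell.

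**Figure D3:**
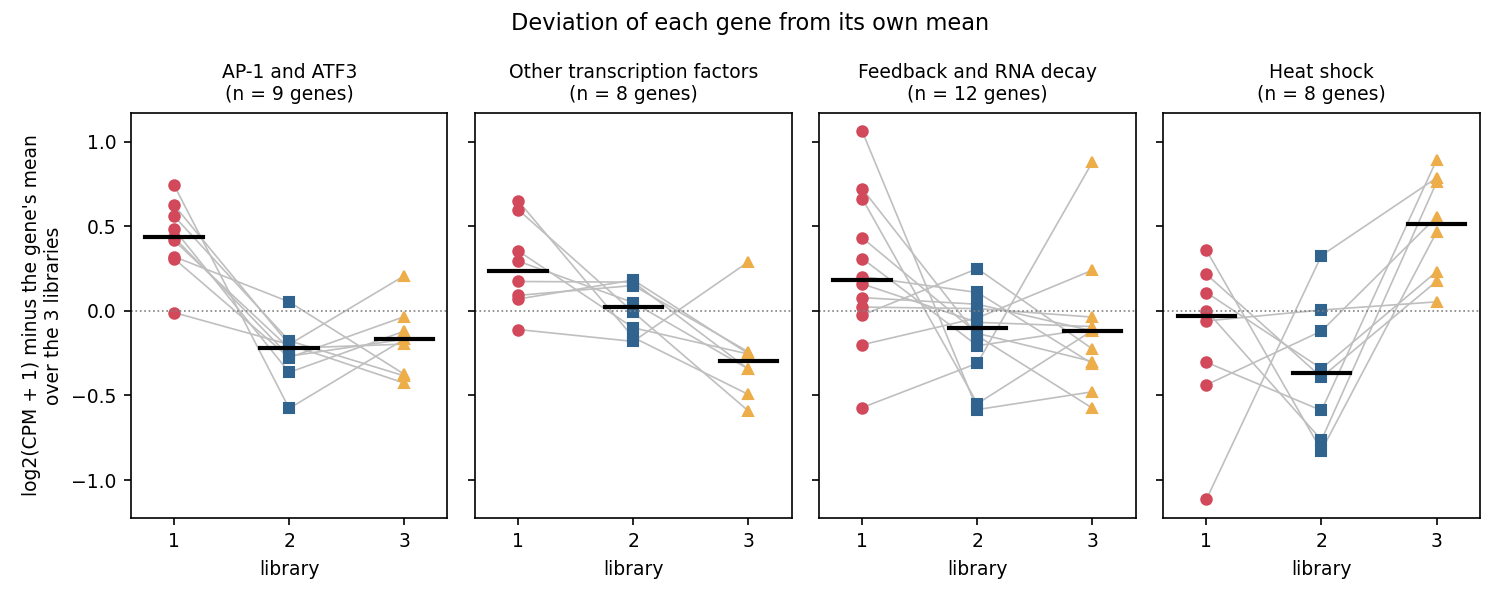
Difference of log2(CPM + 1) from each gene's own mean over the 3 libraries, for the 37 genes past the filter by role group; points are genes, grey lines join the values of 1 gene and black bars are medians. Library 1 is highest for 8 of 9 AP-1 and ATF3 genes and library 3 for 7 of 8 heat shock genes.

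Base composition moved with the distance of library 1. Across all genes tested, the log2 difference of library 1 from the mean of libraries 2 and 3 followed GC content with a Spearman coefficient of 0.607 (n = 14375 genes, all from the same 3 libraries), and across the 37 members with 0.351. The members were richer in GC, with a median of 54.4% against 49.8%, and ranged from 41.2% (Dnaja1) to 67.1% (Jund). Their median difference between library 1 and the others was 0.30, against 0.34 in the tenth of all genes with a median GC content of 54.4%. Single genes lay off the trend: Ier3 at 1.59 and Zfp36 at 1.07 stood above it, and Arc at -0.98 and Hspa1b at -0.64 stood below it. Klf6, with a GC content of 42.4%, was at 0.43 and also stood above it. With the GC and length trends removed, the difference was 1.258 for Klf6, 1.035 for Ier3 and 0.789 for Zfp36. For Arc it was then -1.293 and for Hspa1b -0.874.

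When smooth trends with GC content and exon length were removed from each library, 110 of 14375 genes were called (0.765%) and again 0 of 37 members, with 4 at an unadjusted p below 0.05. The smallest adjusted p in edgeR's test was then 0.177, for Arc, whose range went from 1.45 to 1.84. Some ranges shrank: that of Dnaja1 went from 1.90 to 1.01 and that of Ier3 from 1.65 to 1.11. Others grew, as for Klf6, from 0.64 to 1.38. Of the AP-1 and ATF3 genes 8 of 9 were again highest in library 1, by a smaller median deviation of 0.22. Of the other transcription factors 7 of 8 were again lowest in library 3. In the feedback group 7 of 12 were then highest in library 1, and 5 were lowest there. Heat shock genes highest in library 3 went from 7 to 5 of 8, with a median deviation of 0.53 there. Of these genes, 7 of 8 were higher in library 3 than in library 2, as were 50.5% of all genes. Shares of all genes highest or lowest in a library are not given here with the trends removed.

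**Figure D4:**
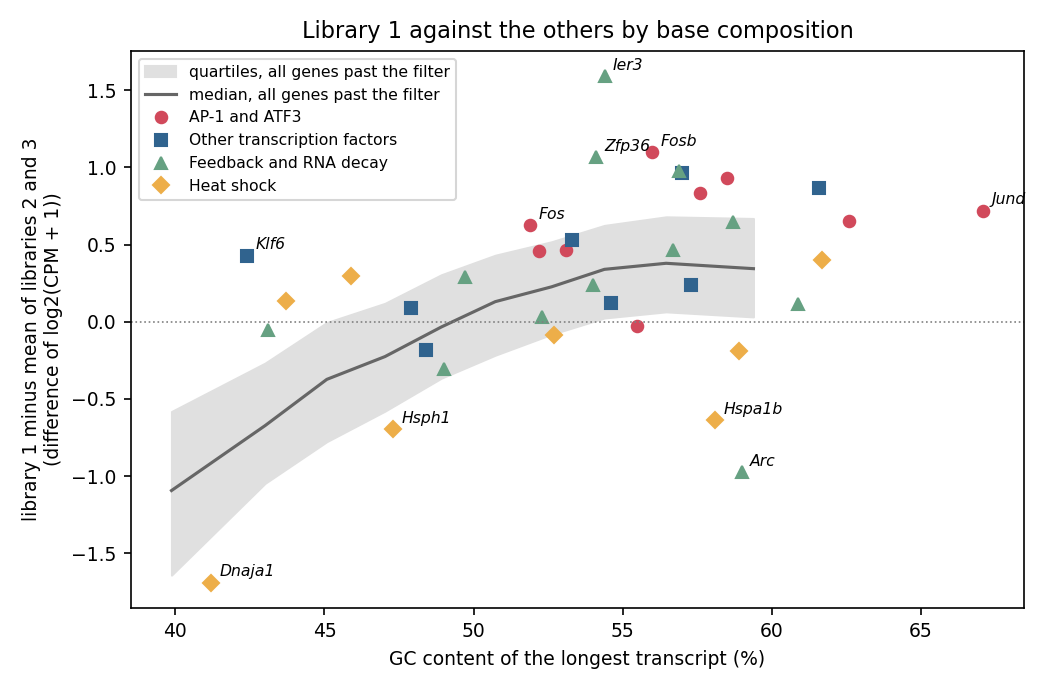
Difference of log2(CPM + 1) between library 1 and the mean of libraries 2 and 3 against GC content of the longest transcript, for the 37 members past the filter (points, by role group) and all genes past the filter (line, median; band, quartiles, in 10 groups by GC content). Among others, Ier3 (1.59) and Klf6 (0.43) lie above the band, and Arc (-0.98) and Hspa1b (-0.64) lie below it.

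Other genes of these pathways gave the setting. A list of 47 further early response genes had 46 past the filter and 0 called; its median level was 8.19 RPKM. Its most abundant genes were Gadd45g, a relative of Gadd45b, at 1535, 744 and 831 CPM (884 ± 370 RPKM), and Nfkbia, the inhibitor and target of NF-kB, at 493, 253 and 360 CPM (229 ± 74.9 RPKM). Both were highest in library 1 and lowest in library 2, the order of Fos, Junb, Atf3 and Gadd45b. Ptgs2, the inducible cyclooxygenase, was at 288, 310 and 122 CPM, with an adjusted p of 0.794 in edgeR's test and of 0.00975 once the GC and length trends were removed. It was the only gene on the 6 lists in this paragraph and the next called in either fit, and like 7 of the 8 other transcription factors it was lowest in library 3.

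The kinases and factors upstream of the response were at ordinary levels. Of 20, all past the filter, 0 were called, 10 lay above the median of all genes per kilobase and their median was 3.76 RPKM. Mapk3, which encodes ERK1, led at 125 ± 36.4 RPKM and Map2k1 followed at 11.3 ± 2.50 RPKM. Among 10 further dimer partners of AP-1, 9 passed the filter and 0 were called, and Atf4 (151 ± 55.9 RPKM) and Atf2 (9.47 ± 2.56 RPKM) led. Of 20 other cytosolic and mitochondrial chaperones 0 were called and 16 were higher in library 3 than in library 2. Of these chaperones, 9 were highest in library 1 and 8 in library 3. Their most abundant genes were the ubiquitin gene Ubb, at 1167 ± 547 RPKM, and Hsp90ab1, at 676 ± 230 RPKM, both highest in library 1. For comparison, 19 genes of the unfolded protein response, the stress programme of the endoplasmic reticulum, had a median of 45.9 RPKM, with Hspa5 at 576 ± 70.1 and Calr at 532 ± 68.9 RPKM. Of these 19, 15 were higher in library 3 than in library 2, while 8 were highest in library 1 and 7 in library 3. Of 14 interferon-stimulated genes, with a median of 21.9 RPKM and led by Ifitm3 and Bst2 at 1708 ± 877 and 174 ± 83.3 RPKM, 2 were higher in library 3 than in library 2. Neither list had a called gene. At an unadjusted p below 0.05 in edgeR's test there were 3 of the further early response genes, 1 upstream gene, 0 AP-1 partners, 3 other chaperones, 2 genes of the unfolded protein response and 2 interferon-stimulated genes. Whether the role groups differ from these lists was not tested.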

How the data were processed

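Counts per gene of 3 libraries were used as deposited: whole numbers with no normalization, in 1 group, per the file headers and values. The submitters' processing notes name HTSeq 0.5.3, DESeq2 1.22.1 and the build mm10, with no role; the aligner, annotation release and strand setting are not given in the sources used here. The table's 5 counter rows (39.1% to 45.6% of each total) were left out. Of the gene identifiers, 98.9% matched GENCODE M21 (GRCm38), from which coordinates, lengths and GC content came.

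TMM factors from edgeR 4.0.16 (R 4.3.3) set the library sizes. Genes that passed filterByExpr with 10 as its minimum count (14409) were kept, and variation was tested with edgeR's goodness-of-fit chi-square at the trended dispersion in an intercept-only model, with Benjamini-Hochberg adjustment over all genes. The procedure was tested on data simulated at the estimated dispersion. It recovered 149 of 200 genes changed 8-fold in 1 library, with 1 false call. Of 200 genes changed 4-fold it recovered 41, with 1 false call. Every gene was simulated on the trended dispersion without scatter around it, so the number of false calls does not bear on the real calls. The widest range of a member was 3.74-fold, so differences of the size seen in the members could go uncalled. RPKM are CPM per kilobase of union exon, and ranges use a pseudocount of 1, which understates differences of low genes. A count of 0 allows 3 counts, 0.101 to 0.152 CPM; reads were amplified and carry no molecular identifiers, so such limits cover counting error only. Libraries differed beyond counting error (chi-square per degree of freedom of at least 75.6), so none was a copy. Alternatives were DESeq2 1.42.0 size factors and dispersions, plain totals, other filters and lengths, GC and length correction, and each library left out. The genes, lists and tests were chosen with earlier results of these data known. Values per library are given for the 3 most and the least abundant genes of each role group and the 8 widest ranges; those of other genes were chosen after their values were seen.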

Additional observations from a re-analysis of the deposited data

How the results depend on the processing

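No member was called under any of the 10 alternatives run. The number of genes called (63) was 134 with no filter and 181 with a mean count of at least 10, both of which test more genes, and 110 with the GC and length trends removed, whose cause was not tested; it ranged from 12 to 28 when each replicate was left out, with fewer samples. The median level of the 39 genes (21.9 RPKM) was 28.3 with the length of the longest transcript and 32.6 with its unshared positions, an alternative chosen after seeing the data, since both lengths are shorter, and 25.5 over members past the filter, which leaves out the 2 lowest. Their median range (0.64 on the log2 scale) ranged from 0.41 without library 1 to 0.60 without library 2. On unshared positions of the longest transcript the log2 ratio of Fos to Fosb was 5.29, of Jun to Jund 2.20 and of Dusp1 to Dusp6 0.50. Fos, Fosb, Dusp1 and Dusp6 had 0% of positions shared, so for them only the length used changed. Per kilobase of all annotated exon, the ratio of Dusp1 to Dusp6 ranged from -0.04 to 0.31 when each replicate was left out, reversed without library 1. Leaving out a library moved the mean of 4 members by over 1.5 times: Ier3 from 1119 to 669 CPM without library 1, and without library 3 Arc from 29.7 to 19.5, Hspa1b from 42.7 to 28.0 and Dusp2 from 0.795 to 0.438 CPM. Depth limited Egr3 and Dusp2, with 4 counts each in library 1. No paired analysis was possible because only 1 group was sampled.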
